A study of Mus musculus with 18 samples.

Results

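The sites described here are weak meiotic recombination hotspots that nevertheless lie on a listed H3K4me3 interval. They are the autosomal DMC1 sites with a B6 value below 24.6 RPM, the lower quartile of the autosomal sites, that share at least 1 bp with the authors' list of H3K4me3 intervals. Of 9132 listed DMC1 sites 8744 were autosomal, 2173 of these were weak in B6, and 734 weak sites (33.8%, Wilson 95% interval 31.8 to 35.8%) overlapped an H3K4me3 interval and are called weak marked sites. The other 1439 weak sites overlapped none and are called weak unmarked sites. Among the 6571 stronger autosomal sites the marked share was 63.2%, or 4156 sites.

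The study isolated spermatocytes from mice 14 days after birth and mapped DMC1, H3K4me3 and H3K36me3 by ChIP-seq. DMC1 was mapped in C57BL/6J (B6), in mice whose Ewsr1 gene was removed with a Stra8-iCre recombinase (Ewsr1 CKO) and in Prdm9+/- mice with a single intact Prdm9 copy (Prdm9 het), and both histone marks in Ewsr1 CKO, with 2 samples in each of these 5 groups. The Stra8 promoter is active in male germ cells shortly before and while they enter meiosis. Stra8-iCre is not named in the labels of B6 or Prdm9 het, so EWSR1 loss and the Cre itself cannot be told apart. The deposited tables hold a single column per group, in RPM (reads scaled by the authors to a sequencing total that is not stated). Histone mark values from B6 are not analysed here. No value therefore has a replicate spread, no p-value was computed, and every difference below compares columns and not animals.

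During meiosis the programmed DNA breaks that start recombination are made at hotspots. PRDM9 binds DNA at a hotspot through its zinc fingers and trimethylates histone H3 at lysines 4 and 36 nearby, and breaks then form within the marked nucleosome-depleted centre. DMC1 is the meiosis-specific recombinase that coats the single-stranded DNA on each side of a break, so its ChIP-seq signal follows both how often a break forms and how long it stays unrepaired. EWSR1 is an RNA-binding protein of the FET family that has been found in a complex with PRDM9. A weak marked site is thus a place with listed H3K4me3 and little DMC1 in the wild-type strain, and the question was whether such sites took a larger part of DMC1 when Ewsr1 was lost or when PRDM9 dose was reduced.

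The weak marked sites were chosen by the B6 column and by the interval list, so their B6 values are a description of the choice. They ranged from 4.89 to 24.6 RPM with a median of 17.4 RPM, close to the 16.5 RPM of the weak unmarked sites, whereas the median of all autosomal sites was 47.3 RPM. The 3 lowest were chr14:25112562-25113726 with 4.89 RPM, chr10:62934712-62935815 with 6.04 RPM and chr4:62976500-62977842 with 6.30 RPM (coordinates as the tables give them, build mm10). The 3 just below the quartile were chr1:36903220-36905354, chr6:147760166-147763077 and chr6:135230943-135233202, with 24.6, 24.4 and 24.4 RPM. The 3 marked sites just above it, chr12:25224617-25226961, chr5:25429744-25431808 and chr19:42022156-42024772, each had 24.6 RPM. The first site below the quartile lay on the same read step as the quartile and fell inside it only through the last deposited digits, so the boundary separates sites that do not differ.

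Of the 734 weak marked sites 18 (2.45%) reached into a promoter window of the RefSeq annotation (GRCm38.p6, which is mm10), taken as 250 bases before to 50 after a gene start, against 1.88% of all autosomal sites. These are the members with sequence at hand, and they are of interest because promoters carry H3K4me3 of their own. In 7 of the 18 the bases before the start lay wholly inside the site and outside any gene body, and 4 of these are shown 5′ to 3′, with CG dinucleotides in capitals. CG reads the same on both strands. Zfp616 (a zinc finger gene, chr11:74060647-74060896, + strand), Defb30 (a beta-defensin gene, chr14:63037847-63038096, − strand) and Gm6557 (a predicted protein-coding gene, chr16:21063341-21063590, − strand) are the protein-coding genes among the 7. Gm40120 (a long noncoding RNA gene, chr3:107380559-107380808, + strand) is the one with the lowest Prdm9 het ratio of the 18.
Zfp616: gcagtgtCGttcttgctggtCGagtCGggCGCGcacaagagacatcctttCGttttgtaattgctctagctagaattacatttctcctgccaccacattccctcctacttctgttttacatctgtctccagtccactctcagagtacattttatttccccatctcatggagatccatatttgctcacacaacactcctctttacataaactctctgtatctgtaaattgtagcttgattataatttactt
Defb30: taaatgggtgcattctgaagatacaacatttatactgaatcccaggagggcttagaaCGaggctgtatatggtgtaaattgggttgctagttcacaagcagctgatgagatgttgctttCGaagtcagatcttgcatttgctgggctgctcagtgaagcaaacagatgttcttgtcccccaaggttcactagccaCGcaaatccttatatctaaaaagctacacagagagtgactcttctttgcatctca
Gm6557: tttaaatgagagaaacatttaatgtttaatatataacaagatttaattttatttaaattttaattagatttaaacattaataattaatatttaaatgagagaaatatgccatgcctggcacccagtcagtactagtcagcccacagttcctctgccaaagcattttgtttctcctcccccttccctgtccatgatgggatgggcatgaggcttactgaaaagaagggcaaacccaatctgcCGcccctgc
Gm40120: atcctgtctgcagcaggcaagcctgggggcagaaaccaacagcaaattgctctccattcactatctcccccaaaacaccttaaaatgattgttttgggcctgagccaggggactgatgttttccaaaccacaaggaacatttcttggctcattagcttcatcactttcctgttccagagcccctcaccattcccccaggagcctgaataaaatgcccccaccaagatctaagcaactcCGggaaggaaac

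The 4 windows held 6, 3, 1 and 1 CG. The 18 windows had a median of 4 CG and a GC content of 49.6%, below the 6 CG and 52.4% of all 32851 RefSeq windows, and at least 1 CG was present in 100% of the 18 and 92.1% of all. At the Zfp616 site B6 had 22.2 RPM of DMC1, Ewsr1 CKO 42.7 RPM and Prdm9 het 9.43 RPM. At the Gm40120 site the values were 10.7, 9.33 and 0.759 RPM. These are the highest and lowest of the 18 in Prdm9 het over B6, with log2 ratios of 1.12 and −1.23 after the scaling described next.

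The sites were chosen for low B6 signal, which favours a larger part of the signal in any other column, and the shares that follow are a description. The summed signal of the weak marked sites was 1.73% of the autosomal total in B6, 2.21% in Ewsr1 CKO and 2.001% in Prdm9 het. The weak unmarked sites, chosen for low B6 signal in the same way, held 3.27% in B6, 4.15% in Ewsr1 CKO and 3.00% in Prdm9 het. As deposited, weak marked sites had a median of 17.4 RPM (B6), 22.3 RPM (Ewsr1 CKO; 3.44 to 70.7 RPM) and 3.46 RPM (Prdm9 het; 0.0545 to 16.7 RPM). Because the autosomal total of the Prdm9 het column was far lower (136064 RPM, where B6 had 713518 RPM and Ewsr1 CKO 765437 RPM), each mutant column was multiplied to the B6 autosomal total, by 0.932 for Ewsr1 CKO and 5.24 for Prdm9 het. All ratios are log2 ratios of scaled RPM plus a pseudocount of 1 RPM, and a positive ratio means a larger part of the autosomal signal, not more breaks. Scaling brought the weak marked medians to 20.8 RPM for Ewsr1 CKO and 18.1 RPM for Prdm9 het.

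In Ewsr1 CKO over B6 the median log2 ratio of the weak marked sites was 0.27 (quartiles 0.03 and 0.53), against 0.23 (−0.04 and 0.55) at weak unmarked sites and 0.06 over all autosomal sites. Weak listed sites thus stood higher in Ewsr1 CKO whether or not they were marked, with a marked minus unmarked difference of medians of 0.05. The list is named as common to B6, Ewsr1 CKO and Prdm9 het. Weak B6 sites not found in a mutant may therefore be missing from it, and what this does to the ratios of either mutant was not tested. Of the weak marked sites 557 (75.9%) were above 0, where 55.8% of all autosomal sites were. At least 2-fold higher were 37 weak marked sites (5.04%), beside a background of 3.15% of all autosomal sites and 6.46% of the weak unmarked sites, and at least 2-fold lower were 6 (0.817%), beside 0.629%. B6 is both the column that chose these sites and the denominator, so nothing further is read from these counts. Weak was also defined by the lower quartile of the Prdm9 het column, which is on neither side of this ratio. The median of the marked sites was then 0.16 (669 sites), 2.24% were at least 2-fold higher, and the difference from unmarked sites was 0.0081.

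In Prdm9 het over B6 the marked and unmarked medians lay further apart, with overlapping distributions. The median log2 ratio was 0.09 (quartiles −0.29 and 0.46) at weak marked sites and −0.24 (−0.62 and 0.12) at weak unmarked sites, a difference of 0.33, or 1.26-fold, with −0.03 over all autosomal sites. The share of sites above 0 was 55.6% (408 sites) when marked and 31.6% (455 sites) when unmarked, where the background was 47.3%. At least 2-fold higher were 36 weak marked sites (4.90%), beside a background of 2.28% and 1.88% of the weak unmarked sites. At least 2-fold lower were 43 weak marked sites (5.86%), beside 5.27% of all autosomal sites and 10.6% of the weak unmarked sites. Both sets lie below the same B6 quartile, and the level of either depends on that choice. With weak defined by the lower quartile of Ewsr1 CKO, the median of the marked sites was −0.01 (785 sites), 2.93% of them were at least 2-fold higher, and the difference from unmarked sites was 0.31. As deposited, 1 of the 734 sites had more DMC1 in Prdm9 het than in B6, as had 10 of all autosomal sites.

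**Figure D1:**
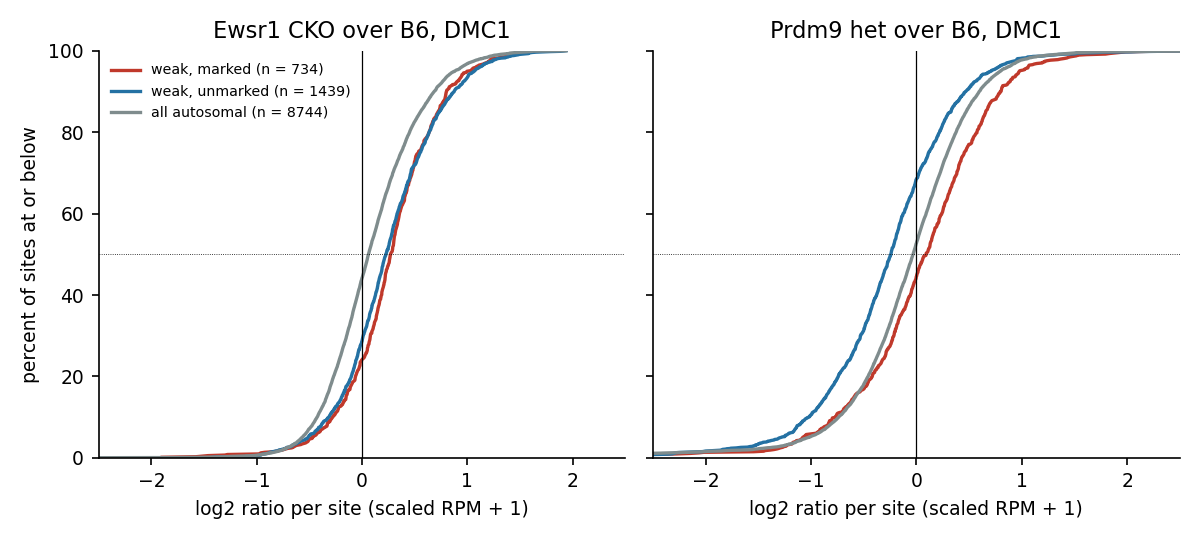
Percent of sites (y axis) at or below a DMC1 log2 ratio (x axis, scaled RPM + 1) for weak marked, weak unmarked and all autosomal sites, in Ewsr1 CKO over B6 (left) and Prdm9 het over B6 (right); the few sites beyond the ends of the axis are not drawn. Around the medians both weak curves on the left lie together to the right of all sites (0.27 and 0.23), and on the right the marked curve (0.09) and the unmarked curve (−0.24) lie on opposite sides of all sites (−0.03); in the lower tails this order does not hold, as at −1 the marked curves (0.817% and 5.86%) lie slightly above all sites (0.629% and 5.27%).

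The difference was present at every strength within the weak range. The weak sites were divided into 4 equal bins by B6 signal, and the marked minus unmarked difference in Prdm9 het over B6 was 0.27, 0.50, 0.26 and 0.29 from the lowest to the highest bin. The same differences in Ewsr1 CKO over B6 were 0.04, 0.06, 0.01 and 0.03. Site width was also similar, with medians of 2064 bp at marked and 2032 bp at unmarked sites. Taken by chromosome, the weak marked median lay above the weak unmarked median in Prdm9 het over B6 on 19 of 19 autosomes, by 0.09 on chromosome 2 at the least and by 0.76 on chromosome 17, which has only 14 weak marked sites, at the most. In Ewsr1 CKO over B6 it lay above on 14 of 19. The pattern was not limited to weak sites: at the stronger sites the marked median in Prdm9 het over B6 was 0.08 and the unmarked median −0.13, a difference of 0.21. In Ewsr1 CKO over B6 the stronger marked sites were below the stronger unmarked ones, at −0.05 and 0.10. These comparisons share the B6 column, and whether the weak and stronger differences differ from each other was not tested.

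**Figure D2:**
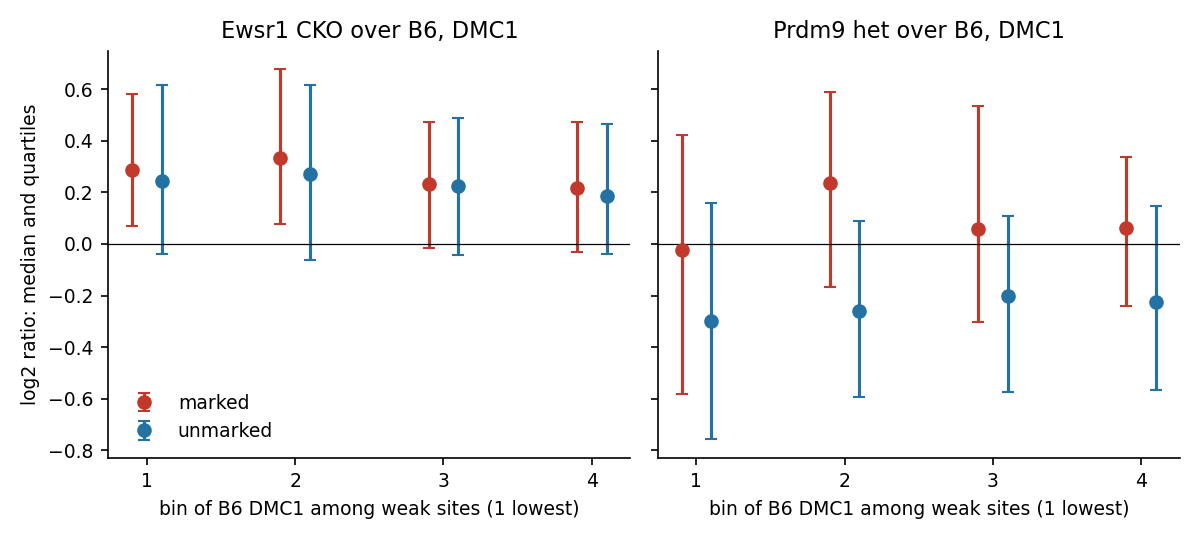
Median DMC1 log2 ratio (points) and quartiles (bars) of weak marked and weak unmarked sites in 4 equal bins of B6 signal (x axis), for Ewsr1 CKO over B6 (left) and Prdm9 het over B6 (right). In Prdm9 het the marked medians, from −0.02 to 0.24, lie above the unmarked medians, from −0.30 to −0.20, in each bin, while the quartile bars of the sets overlap.

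The ratio of Ewsr1 CKO over Prdm9 het leaves out the column that chose the sites. Its median was 0.22 at weak marked sites, 0.48 at weak unmarked sites and 0.14 over all autosomal sites. Weak sites thus took a larger part of the signal in Ewsr1 CKO than in Prdm9 het, and the unmarked ones more so, by 0.26. At least 2-fold higher in Ewsr1 CKO were 65 weak marked sites (8.86%), close to the background of 8.51%, and 20.5% of the weak unmarked sites. At least 2-fold lower were 19 weak marked sites (2.59%), beside a background of 2.89% and 0.903% of the weak unmarked sites. Above 0 were 478 weak marked sites (65.1%), where the background was 59.6% and the weak unmarked sites had 80.8%. Stronger sites showed the same order at a lower level, with medians of −0.08 when marked and 0.29 when unmarked, a marked minus unmarked difference of −0.36. The weak marked sites thus lay above the stronger marked sites and below both unmarked sets, and near the median of all sites, which mixes these sets.

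In its median H3K4me3 in Ewsr1 CKO followed the listing, which was part of the choice. The ranges overlapped, with 0.105 to 4.53 RPM at weak marked and 0.0693 to 7.44 RPM at weak unmarked sites. Unmarked thus means off the list and not free of the mark. The median was 0.900 RPM at weak marked sites and 0.477 RPM at weak unmarked sites, and 0.442 and 0.236 RPM per kb of site. Stronger marked sites had 1.29 RPM, or 0.499 RPM per kb, so per length the weak marked sites carried nearly as much of the mark as the stronger ones. Each weak marked site overlapped a single listed interval, and 2 intervals were shared by a pair of sites, which leaves 732 distinct intervals. Taken per site, the overlapped intervals were narrower than those at stronger sites (median 1468.5 and 1871 bp), had less H3K4me3 (0.772 and 1.11 RPM) and less H3K36me3 (0.937 and 1.56 RPM) without correction for width, and lay a little further off centre (193 and 129.5 bp between the centres of site and interval). Spearman's rho between the H3K4me3 and the H3K36me3 value of an interval was 0.501 over the 732 distinct intervals (Ewsr1 CKO).

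Among the weak marked sites the Prdm9 het ratio was higher where H3K4me3 was higher. With the sites in 4 equal bins of H3K4me3, the Prdm9 het over B6 medians were −0.06, −0.0013, 0.18 and 0.23 from the lowest to the highest bin. The corresponding medians of Ewsr1 CKO over B6 were 0.27, 0.20, 0.30 and 0.30, without such an order. The lowest bin ran from 0.105 to 0.729 RPM of H3K4me3 and the highest from 1.24 to 4.53 RPM, and the median B6 DMC1 value was 14.0 RPM in the lowest bin and 17.6 to 18.4 RPM in the other 3. Across the 734 sites Spearman's rho with H3K4me3 was 0.268 for the Prdm9 het ratio and 0.036 for the Ewsr1 CKO ratio, and at the 1439 weak unmarked sites it was 0.097 and −0.077. Sites are not replicates, and the bins share the same columns.

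**Figure D3:**
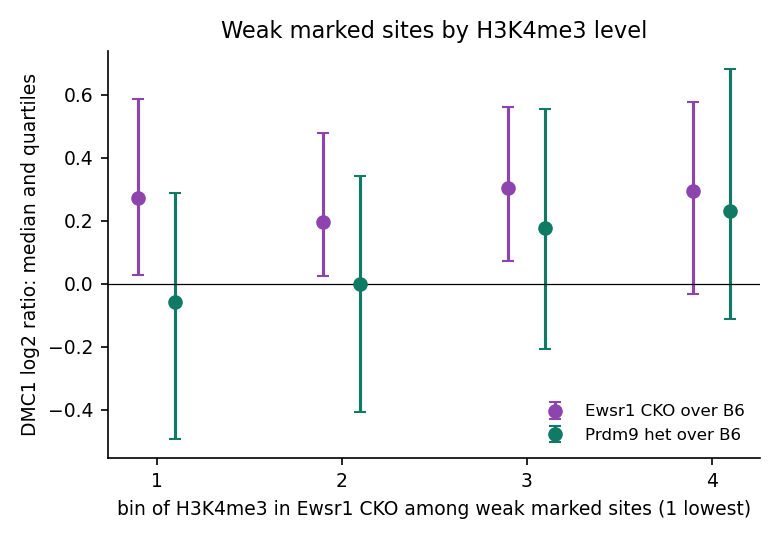
Median DMC1 log2 ratio (points) and quartiles (bars) of the 734 weak marked sites in 4 equal bins of their H3K4me3 in Ewsr1 CKO (x axis), for Ewsr1 CKO over B6 and Prdm9 het over B6 (y axis). The Prdm9 het median goes from −0.06 in the lowest bin to 0.23 in the highest, and the Ewsr1 CKO median stays between 0.20 and 0.30.

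The 3 weak marked sites with the most H3K4me3 differed from one another in DMC1. At chr5:129263891-129266605 H3K4me3 was 4.53 RPM, and B6 had 13.4 RPM of DMC1, Ewsr1 CKO 24.1 RPM and Prdm9 het 6.28 RPM. At chr15:101126377-101128755, in the body of Acvrl1 (a receptor of the TGF-beta family), H3K4me3 was 3.96 RPM and DMC1 was 14.4, 10.1 and 2.76 RPM. At chr7:144176257-144179454, in the body of Shank2 (a synaptic scaffold gene), H3K4me3 was 3.96 RPM and DMC1 was 23.0, 12.5 and 6.20 RPM. The first is thus higher than B6 in both mutants after scaling (log2 ratios 0.70 and 1.24), and the others are lower in Ewsr1 CKO (−0.57 and −0.92) and not in Prdm9 het (0.004 and 0.48). At the first and second sites the overlapped H3K4me3 interval itself held only 0.679 and 1.31 RPM.

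Steps were sought in 732 weak marked sites, with each distinct interval taken once. The B6 and Ewsr1 CKO columns lay on a common step of 0.129 and 0.246 RPM at 100% of these. If 1 step is 1 read, which the authors do not state, the weak marked sites held 38 to 191 reads in B6 and 14 to 288 in Ewsr1 CKO. The median counting error (SE) of an Ewsr1 CKO over B6 log2 ratio was then 0.20 among weak marked sites, and the standard deviation that their interquartile range corresponds to was 0.38. No such step is given here for the Prdm9 het column, and its depth is unknown. The intervals that follow are exact Poisson 95% intervals and cover counting error only.

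The 5 weak marked sites with the highest Ewsr1 CKO ratio lay at least 31.8 Mb short of the final listed site and in no RefSeq gene body. At chr1:47819259-47821243 B6 had 12.7 RPM of DMC1 (interval 10.3 to 15.5), Ewsr1 CKO 43.2 RPM (37.1 to 50.1) and Prdm9 het 4.04 RPM, which gives 1.59 for Ewsr1 CKO over B6. At chr1:113649999-113652425 it was 12.9, 43.2 and 2.26 RPM (1.57). At chr13:87453367-87454974 it was 21.6, 70.7 and 4.88 RPM (1.57), the highest Ewsr1 CKO value of the weak marked sites. These sites were picked for this ratio, so that their B6 and Ewsr1 CKO intervals lie apart follows from the choice. Their Prdm9 het over B6 ratios were 0.69, −0.11 and 0.23 in the same order. At chr3:74667138-74668902 the values were 18.005, 57.7 and 5.36 RPM (1.53), and at chr10:48671049-48672552 they were 17.6, 54.5 and 4.67 RPM (1.48). H3K4me3 at the 5 sites was low to moderate, from 0.374 to 1.09 RPM. Weak unmarked sites reached higher ratios still: chr8:100206841-100207908 went from 7.46 RPM in B6 to 33.6 RPM (1.94), and chr19:26089680-26091548 from 14.7 to 62.4 RPM (1.92).

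The 5 weak marked sites with the lowest Ewsr1 CKO ratio lay at the far ends of chromosomes 7, 16 and 2, each within 0.420 Mb of the last listed site. At chr7:144853993-144856208 B6 had 14.7 RPM of DMC1 (interval 12.1 to 17.6), Ewsr1 CKO 3.44 RPM (1.88 to 5.77) and Prdm9 het 4.15 RPM, log2 ratios over B6 of −1.90 and 0.54. At chr7:145273584-145276142, the last listed site of the chromosome, in the body of Tpcn2 (an endolysosomal ion channel gene), it was 14.3, 4.67 and 4.48 RPM (−1.51 and 0.68). At chr7:144920906-144922538, in the LTO1 gene body, it was 12.5, 4.17 and 1.45 RPM (−1.46 and −0.65). Thus 3 of the 5 lie within a single stretch of chromosome 7, where neighbouring sites are no independent observations. At chr16:97793289-97795019, in the body of Prdm15 (a PR domain zinc finger gene), the values were 21.1, 6.87 and 5.42 RPM (−1.58 and 0.41). At chr2:181690293-181692470, over a promoter window of Rgs19 (a regulator of G protein signalling), they were 11.1, 4.17 and 2.92 RPM (−1.30 and 0.44). H3K4me3 in Ewsr1 CKO was high at all 5, from 2.05 to 3.58 RPM, above the upper quartile of 1.24 RPM among weak marked sites. The sixth site that was at least 2-fold lower, chr5:36357632-36359858 in the body of Sorcs2 (named after its values were seen), lay 113 Mb from the last listed site and had 13.6, 5.40 and 2.34 RPM with 1.05 RPM of H3K4me3.

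Distance from the end was therefore tabulated for all weak marked sites. The last 10 Mb up to the final listed site of each chromosome held 73 of them (9.95%), 6.32% of the weak unmarked sites, 7.44% of the stronger marked sites and 7.33% of all autosomal sites. Their median Ewsr1 CKO ratio was −0.0037, against 0.30 at the 661 weak marked sites elsewhere, and 5 of the 6 sites at least 2-fold lower in Ewsr1 CKO were among them. Lower values near the end were not particular to weak marked sites: of all autosomal sites at least 2-fold lower in Ewsr1 CKO 36 of 55 lay there. Of the stronger marked ones it was 27 of 34, and of the stronger unmarked ones 4 of 8. These are 27 of the 309 stronger marked and 4 of the 168 stronger unmarked sites near the end. The weak unmarked sites had nearly the same medians, −0.0035 near the end and 0.24 elsewhere, but none of the 91 weak unmarked sites near the end was at least 2-fold lower (whether this share differs was not tested). Within the last 1 Mb, a limit chosen after the values were seen, 18 weak marked sites had a median of −0.77 and 18 weak unmarked sites a median of −0.47, where stronger marked sites had −0.86 and all autosomal sites −0.72. In Prdm9 het over B6 the weak marked medians were −0.03 within the last 10 Mb and 0.11 elsewhere, and the weak unmarked ones −0.41 and −0.24. Within the last 1 Mb they were −0.15 and −0.75, and 3 of 18 weak marked, 5 of 18 weak unmarked and 11 of 84 autosomal sites were at least 2-fold lower, beside 5.27% of all autosomal sites. The stronger marked sites there had a higher median, 0.32, with 1 of 39 at least 2-fold lower, and the stronger unmarked sites −0.36, with 2 of 9. H3K4me3 moved with position too, with medians of 1.02 RPM near the end and 0.894 RPM elsewhere at weak marked sites, and its part in the result was not tested.

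**Figure D4:**
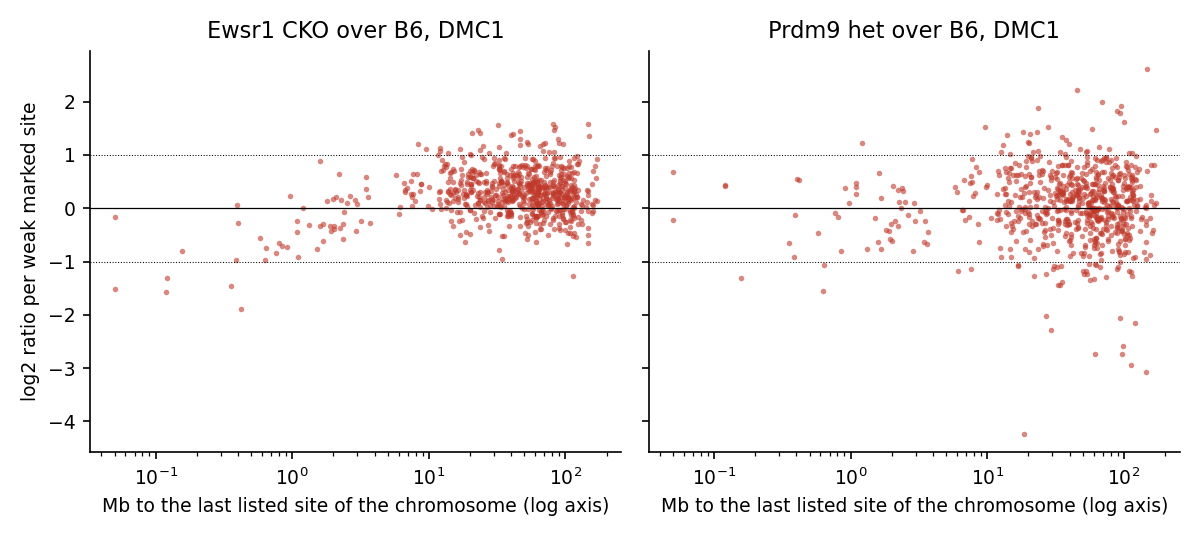
DMC1 log2 ratio of each of the 734 weak marked sites (y axis) against its distance to the last listed site of its chromosome in Mb (x axis, log axis, distances under 0.05 Mb drawn at 0.05), for Ewsr1 CKO over B6 (left) and Prdm9 het over B6 (right); dotted lines mark 2-fold. On the left the 18 sites within 1 Mb have a median of −0.77; on the right these 18 have a median of −0.15, with 3 at least 2-fold lower, and the lowest values of all, down to −4.24, lie elsewhere.

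The 5 weak marked sites with the highest Prdm9 het ratio lay in gene bodies, as did 65.4% of all weak marked sites. At chr2:33054183-33056319, in Garnl3, B6 had 13.5 RPM of DMC1, Ewsr1 CKO 38.5 RPM and Prdm9 het 16.7 RPM, log2 ratios over B6 of 1.348 and 2.61, and this is the site that exceeded B6 as deposited. At chr7:100011519-100013904, in Chrdl2 (a secreted BMP antagonist gene), it was 16.8, 21.9 and 15.6 RPM (0.26 and 2.22). These combine a high Prdm9 het value with much H3K4me3, 3.00 and 3.19 RPM. At chr9:54645811-54648147, in Acsbg1 (an acyl-CoA synthetase gene) and the overlapping Gm51677, it was 15.0, 38.8 and 11.9 RPM (1.21 and 1.99), at chr1:99859566-99861414, in Cntnap5b, 13.9, 26.3 and 10.6 RPM (0.78 and 1.93), and at chr18:65749795-65751474, in Oacyl, 19.0, 56.5 and 13.9 RPM (1.42 and 1.88). The last had only 0.625 RPM of H3K4me3. Both ratios of a site share its B6 value, and on the deposited scale the last 4 of these sites were below B6 in Prdm9 het. Among weak unmarked sites the highest Prdm9 het value was 33.0 RPM at chr17:44998983-45001157 in Supt3, where B6 had 23.1 RPM and the Ewsr1 CKO column 31.7 RPM (Prdm9 het over B6 2.85). This site was also the highest of them in the Prdm9 het over B6 ratio, and the second by that ratio was chr6:30251551-30253354 in Ube2h, with 12.3, 17.9 and 12.9 RPM (2.36).

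At the opposite end, 5 weak marked sites were almost empty in Prdm9 het, with Ewsr1 CKO values from 13.5 to 31.2 RPM. At chr9:104939613-104942367, in Cpne4 (a copine gene), B6 had 23.3 RPM of DMC1, Ewsr1 CKO 15.7 RPM and Prdm9 het 0.0545 RPM, a Prdm9 het ratio of −4.24 that was −6.35 without the pseudocount, and an Ewsr1 CKO over B6 ratio of −0.63, below the lower quartile of 0.03. At chr6:3135958-3138024 it was 19.5, 26.5 and 0.277 RPM (−3.07), and at chr14:12396410-12398964, in Cadps, 21.7, 31.2 and 0.377 RPM (−2.93). At chr17:31913828-31915837 it was 12.0, 13.5 and 0.180 RPM (−2.74), and at chr8:31693978-31696424 it was 17.6, 18.7 and 0.343 RPM (−2.73). H3K4me3 in Ewsr1 CKO at these 5 sites, from 0.676 to 0.799 RPM, was below the median of the weak marked sites. Without the pseudocount the Prdm9 het ratios of the last 4 of these sites were −3.75, −3.46, −3.66 and −3.29. The first 3 also have the highest ratios of Ewsr1 CKO over Prdm9 het (3.61, 3.39 and 3.34, or 5.68, 4.09 and 3.88 without the pseudocount), with an order among them that differs on the deposited scale, and the lowest of that ratio are the distal sites on chromosome 7 at 144853993 and 145273584 and on chromosome 16 (−2.44, −2.19 and −1.99, the last 2 of which were not below 0 as deposited). Most sites low in Prdm9 het did not have a low neighbour, but they had one more often than other sites. The nearest listed autosomal site was itself at least 2-fold lower for 10 of the 43 low weak marked sites (23.3%), for 4.49% of the other weak marked sites, for 16.4% of the low weak unmarked sites and for 24.9% of all low autosomal sites. In Ewsr1 CKO it was so for 5 of the 6 low weak marked sites, the distal ones described above, and 0.824% of the others. It was so for 0 of the 7 low weak unmarked sites and for 17 of the 55 low autosomal sites (30.9%). The chromosome 7 sites at 144853993 and 144920906 are each other's nearest listed site, 66.6 kb apart, and are not independent.

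The share of weak marked sites in genes was near that of all autosomal sites and above that of the weak unmarked ones. A RefSeq gene body was overlapped by 480 of 734 (65.4%, Wilson 95% interval 61.9 to 68.7%) by 62.6% of all autosomal sites and by 58.1% of the weak unmarked sites (55.5 to 60.6%). A protein-coding one was overlapped by 56.4%, 54.1% and 48.6%. At the stronger sites 66.0% of the marked and 58.8% of the unmarked sites lay in a gene body. The annotation used holds gene limits only, so exons and introns were not told apart. The nearest listed site was a median of 75.7 kb away for weak marked and 92.9 kb for weak unmarked sites. The weak marked sites made up between 21.9% (chromosome 17, 14 of 64) and 43.0% (chromosome 5, 49 of 114) of the weak sites of a chromosome. The 18 weak marked sites at a promoter window had a median Prdm9 het ratio of 0.40, with 16 of 18 above 0, and the other 716 a median of 0.06, with 54.7% above 0, where the share over all autosomal sites was 47.3%. Their median H3K4me3 was also higher, at 1.28 and 0.894 RPM, their median B6 values were 17.0 and 17.4 RPM, and their Ewsr1 CKO medians were both 0.27. Without the sites at promoter windows the difference between weak marked and weak unmarked sites in Prdm9 het over B6 was 0.31.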

How the data were processed

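DMC1, H3K4me3 and H3K36me3 ChIP-seq values came from 2 tables in RPM that the authors deposited, 1 line per shared site and 1 column per group, per the file headers. The submitters' processing notes list BWA 0.5.10, Trimmomatic 0.32 and the build mm10. The RPM denominator, duplicate handling, peak caller and merging of replicates are not given in the sources used here. Of the columns, 6 were used and 4 that matched no sample of the series were not. Whether a column pools its 2 samples is not stated.

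Repeated H3K4me3 intervals (220 of 5787 lines) were averaged. Mutant DMC1 columns were scaled to the B6 autosomal total, and log2 ratios used a pseudocount of 1 RPM. Only descriptions were made, as planned for single columns. Functions were tested on simulated data. Sites named are the 5 highest and 5 lowest ratios per mutant, the 3 highest and lowest of Ewsr1 CKO over Prdm9 het, those next to the quartile, the 3 lowest in B6, the 3 highest in H3K4me3, and the 2 highest weak unmarked sites per mutant. Members, lists and bins were chosen with earlier results of these data known. Alternatives covered scaling, pseudocount, the definition of weak, a filter on low values, overlap rules, matching and chromosome ends. Python 3.11.15, numpy 2.4.6, pandas 2.3.3, scipy 1.17.1 and matplotlib 3.10.9 were used.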

Additional observations from a re-analysis of the deposited data

How the results depend on the processing

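The marked minus unmarked difference in Prdm9 het over B6 (0.33) kept its direction under each of the 15 alternatives run, with its lowest value, 0.25, on the values as deposited, where the pseudocount weighs more on the low column. The difference in Ewsr1 CKO over Prdm9 het (−0.26) was −0.19 as deposited, and that in Ewsr1 CKO over B6 (0.05) was −0.0052 with weak defined by the B6 median. The level of a ratio depended on scaling. As deposited, with totals that include the X and with equal autosomal medians, the weak marked median of Ewsr1 CKO over B6 (0.27) was 0.368, 0.368 and 0.14, with 7.63%, 7.63% and 3.41% of sites at least 2-fold higher. The first 2 settings gave −2.00 and 0.20 for Prdm9 het over B6 (0.09), with 0% and 7.36% at least 2-fold higher. The median of Ewsr1 CKO over Prdm9 het (0.22) was 2.36 as deposited and 0.081 with equal medians. With weak chosen by the column outside the ratio, the Ewsr1 CKO median was 0.16 with 2.24%, and the Prdm9 het median −0.0054 with 2.93%. Below the B6 median the Ewsr1 CKO median was 0.19, and that of Ewsr1 CKO over Prdm9 het 0.12. Below the 10th percentile the latter was 0.27, and 7.20% of sites were at least 2-fold higher in Ewsr1 CKO over B6. Without the lowest 5% of sites the medians over B6 were 0.30 and 0.17. The Prdm9 het median (0.09) was also lower than reported below the 10th percentile of B6, at 0.03 (264 sites, with an order-statistic 95% interval over sites, not animals, of −0.05 to 0.14), and without sites at promoter windows, at 0.06, so its distance from 0 is small beside these choices. The marked share (33.8%) was 30.2% below the 10th percentile, 41.0% below the median, 30.1% with centres within 500 bp, 36.04% with weak chosen by Ewsr1 CKO and 30.6% by Prdm9 het, and the H3K4me3 median (0.900 RPM) was 0.804 and 0.991 RPM in the first 2 of these. The cause of these shifts was not tested.

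As deposited, 4 named sites were below B6 in Prdm9 het, at −0.10 (chromosome 7, 100011519), −0.31 (chromosome 9, 54645811), −0.36 (chromosome 1, 99859566) and −0.43 (chromosome 18, 65749795), and the distal sites on chromosome 7 at 145273584 and chromosome 16 at 97793289 were at 0.049 and 0.30 in Ewsr1 CKO over Prdm9 het. Leaving out sites at promoter windows was added after the data were seen. No paired analysis was possible because each group has a single deposited column, which also leaves no replicate to leave out. The unknown depth of the Prdm9 het column limits what its values near 0 show.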
